A study of Mus musculus with 47 samples.

Results

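The hippocampus of young female mice was compared 4 days and 1 day after sepsis. The comparison held 8 of the 47 libraries of the series, 4 from mice killed on day 4 and 4 from mice killed on day 1, and 11633 of the 28032 genes in the deposited table. These genes averaged 5 CPM or more (reads of a gene scaled to a common library size) over the 8 libraries. All 8 libraries came from C57BL/6 females of 3 to 5 months. Their cecum had been ligated and punctured, which lets gut bacteria into the abdomen, and they had received the opioid buprenorphine, the antibiotic imipenem and restraint in a cone, also before they were killed. The day 1 mice were killed at 24 hours, and the day 4 mice had by then been given more antibiotic doses and more sessions of restraint. The 4 young female control libraries came from unoperated mice of the home cage, so their levels differ from those after sepsis by the whole procedure. The change from day 1 to day 4 was also set beside that of young males of the same age (4 libraries each day) and of old females of 18 to 22 months (4 libraries on day 1 and 3 on day 4). Old mice died between the days and young mice did not, so the old females of day 4 were survivors.

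Sepsis releases cytokines and adrenal glucocorticoids into the blood. Glucocorticoids enter the brain and switch on genes through their receptor, and cytokines act on vessels, astrocytes and microglia. Oligodendrocytes wrap axons in myelin, a membrane rich in cholesterol and galactolipids. Proteins destined for membranes or secretion are folded by chaperones of the endoplasmic reticulum, whose genes are induced together when unfolded proteins accumulate.

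From day 1 to day 4, 847 genes (7.28% of those tested) passed the study's threshold, an unadjusted p of 0.01. Of these, 518 (4.45%) rose and 329 (2.83%) fell, with a median size of 0.37 on the log2 scale. Values are log2 of the CPM plus 1, so that changes of genes with low values are understated, and the median change of all genes tested was 0.04. The test was limma's moderated test over the 8 libraries, and "rose" and "fell" are used for genes past this threshold. After Benjamini-Hochberg adjustment over all genes, 253 remained below 0.05, 127 higher and 126 lower. The largest changes were downward, since 27 of the genes that fell and 7 of those that rose moved by more than 1 on the log2 scale. The split between directions depended on the scaling. It was 518 to 329 with the values as deposited, 362 to 492 after scaling by the median of ratios and 492 to 616 after a correction for GC content. The number of genes was 558 without day 1 replicate 1, 559 without day 4 replicate 1 and 1238 without day 4 replicate 3.

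**Figure D1:**
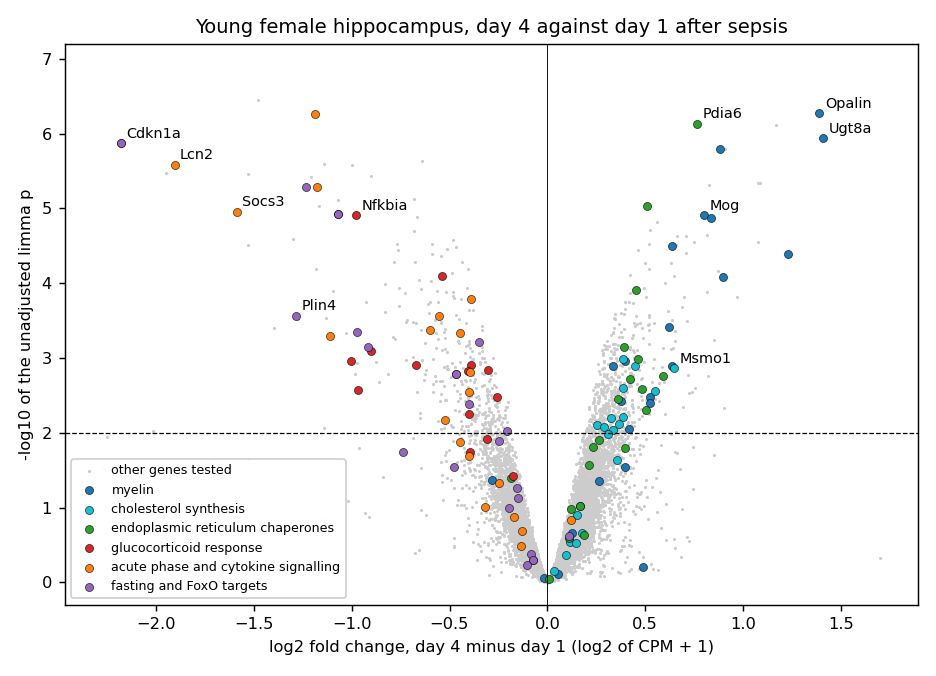
Change from day 1 to day 4 in young females for each of the 11633 genes tested (x axis, log2 of CPM plus 1) against the -log10 of its unadjusted p from limma (y axis). Colours mark the members of 6 gene lists, genes above the dashed line at the threshold are the 518 that rose and the 329 that fell, and among them Cdkn1a and Lcn2 on the left lie farther from 0 than Ugt8a and Opalin on the right.

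The 8 libraries held between 19104003 and 24742268 reads assigned to genes, estimated from the value of a single read, which lay between 0.0323 and 0.0432 CPM. Xist, expressed from the inactive X chromosome, lay between 93.4 and 361 CPM in the 12 young female libraries, and the sum of 4 Y-linked genes reached at most 0.349. The lowest Xist and the highest Y-linked sum were both in control replicate 2, and the next lowest Xist was 218 CPM, in day 4 replicate 3. Day 4 replicate 3 stood farthest from the other libraries of its group, with a root mean square deviation of 0.303 on the log2 scale against 0.178 to 0.258 for the other 3. Among the controls, replicate 2 stood apart on the first principal component of the 12 libraries. Among the young males of day 4, the library with label replicate 3 had the Xist and Y-linked pattern of a female. It was kept as labelled, and the main counts for young males are also given without it. RNA came from whole hippocampi, so fewer cells of a type and less RNA per cell cannot be told apart.

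Genes that respond to glucocorticoids fell together. Of the 18 listed genes of this kind, chosen by the study on these libraries and therefore not independent evidence of their direction, 14 fell and 0 rose. Their median change was -0.44, against 0.04 for all genes. An F test without moderation called 8 of the 18. Cdkn1a, which encodes an inhibitor of cyclin-dependent kinases (chr17:29090976-29100727 in GRCm38), fell most of all named genes. It stood at 58.5, 74.2, 79.98 and 55.7 CPM in the 4 libraries of day 1 and at 12.7, 9.02, 24.6 and 12.95 CPM on day 4. The highest library of day 4 thus lay below the lowest of day 1, and the change was -2.18 on the log2 scale (SE 0.23, adjusted p = 0.00209). In the controls Cdkn1a lay between 5.90 and 18.5 CPM. Pdk4, a kinase that shuts off pyruvate dehydrogenase, went from 15.4 ± 2.22 CPM (SD, n = 4) on day 1 to 6.88 ± 1.53 CPM (n = 4), a change of -1.07 (SE 0.14, adjusted p = 0.00466). Nfkbia, the inhibitor of the transcription factor NF-kappaB, fell by 0.98 (SE 0.13), Ddit4, a stress-induced inhibitor of the kinase mTOR, by 0.90 (SE 0.20) and Errfi1, a feedback inhibitor of the EGF receptor, by 0.54 (SE 0.09).

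Within the same list, levels on day 4 were also set beside the controls. Fkbp5, a co-chaperone that lowers the sensitivity of the glucocorticoid receptor, stood at 117, 120, 135 and 119 CPM on day 1 and at 80.9, 82.3, 104 and 103 CPM on day 4. Both days lay apart, and the change was -0.41 (SE 0.10, adjusted p = 0.0575). Its controls were at 74.9, 81.1, 53.0 and 57.5 CPM, the highest of them just above the lowest library of day 4, and the mean of day 4 exceeded them by 0.48 on the log2 scale (SE 0.15, adjusted p = 0.999), which passed the threshold with all libraries but not without control replicate 3 or 4 or day 4 replicate 3 or 4. Sgk1, a kinase that regulates ion channels, was at 168, 205, 191 and 145 CPM on day 1 and at 59.2, 63.0, 146 and 116 CPM on day 4. It fell by 0.97 (SE 0.25, adjusted p = 0.0754), but the groups overlapped because day 4 replicate 3 reached the lowest library of day 1. Its difference from the controls was 0.64 (SE 0.26, adjusted p = 0.999), which did not pass the threshold. The study lists Sgk1 as higher on day 4 in all its groups. The related kinase gene Sgk3 fell by 1.07 (SE 0.14, adjusted p = 0.00356) from 19.8 ± 3.07 to 8.97 ± 1.71 CPM.

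Receptors and targets of cytokine signalling and acute-phase genes also fell. Of 28 listed genes 20 were high enough to be tested, of which 12 fell and 0 rose, with a median change of -0.42. The filter averaged both days, so some low genes were kept only through their level on day 1. Osmr and Socs3 in this list, and Angptl4 and Icam1 in lists below, averaged less than 5 CPM on day 4. This can tilt such counts toward falls. With no filter 14 members of this list were called, with a median of -0.45. Lcn2 encodes lipocalin 2, an iron-scavenging acute-phase protein (chr2:32384633-32388252). It stood at 25.1, 25.5, 32.3 and 21.5 CPM on day 1 and at 6.94, 3.24, 7.59 and 8.14 CPM on day 4, while the controls held 0.793, 0.872, 0 and 0 CPM. The change from day 1 was -1.90 (SE 0.22, adjusted p = 0.00233), and day 4 still exceeded the controls by 2.41 on the log2 scale (SE 0.32, adjusted p = 0.0707). All 4 libraries of day 4 lay above all 4 controls and below all 4 of day 1.

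For 2 receptor genes and a feedback inhibitor day 4 did not differ detectably from the controls. Il4ra, a receptor chain for interleukin 4, was at 15.3, 13.03, 17.5 and 14.4 CPM on day 1 and at 5.42, 5.44, 6.91 and 6.37 CPM on day 4, against 3.56 to 5.87 CPM in the controls. It fell by 1.19 (SE 0.12, adjusted p = 0.00179) and no libraries of the days overlapped. Osmr, the receptor for oncostatin M, fell by 1.18 (SE 0.15) from 9.86 ± 1.49 to 3.82 ± 0.764 CPM. Socs3, a feedback inhibitor of cytokine receptors that STAT3 induces, fell by 1.59 (SE 0.21) from 8.95 ± 2.94 to 2.25 ± 0.664 CPM. The difference of day 4 from controls was 0.23 for Il4ra (95% interval from -0.14 to 0.59, adjusted p = 0.999), 0.02 for Osmr (95% interval from -0.37 to 0.41, adjusted p = 0.999) and 0.28 for Socs3 (from -0.20 to 0.76, adjusted p = 0.999).

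**Figure D2:**
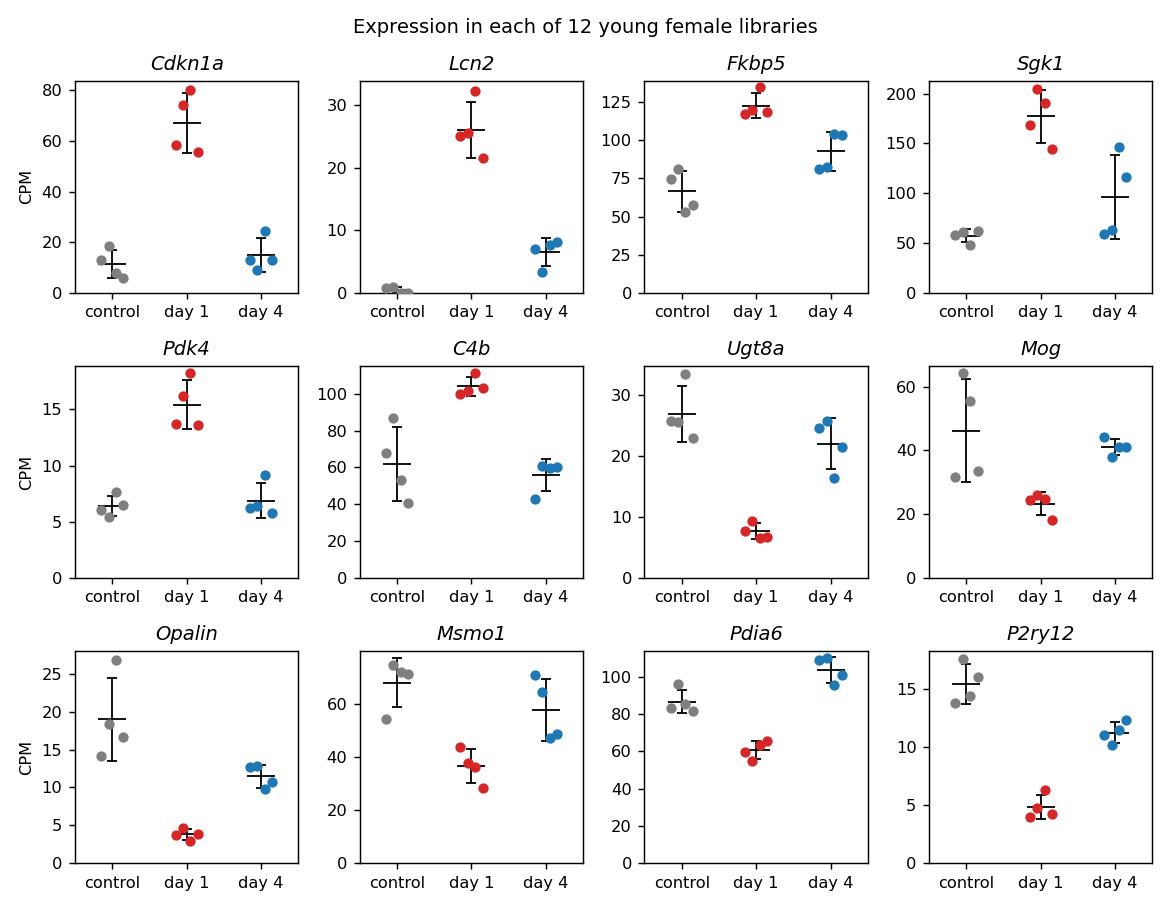
CPM of 12 named genes (1 panel each, y axis in CPM) in the 4 control, 4 day 1 and 4 day 4 libraries of young females, with bars for the group mean and its SD. Cdkn1a, Lcn2, Fkbp5, Sgk1, Pdk4 and C4b are lower on day 4 than on day 1, Ugt8a, Mog, Opalin, Msmo1, Pdia6 and P2ry12 are higher, and the libraries of day 1 and day 4 overlap in the panel of Sgk1.

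Complement genes form the effector arm of innate immunity. Of 8 tested, 3 fell and 0 rose (median -0.26), and 1 was called without day 4 replicate 1. C4b, the central component C4, was at 99.9, 102, 111 and 103 CPM on day 1 and at 42.9, 60.7, 59.6 and 60.1 CPM on day 4. It fell by 0.90 (SE 0.11, adjusted p = 0.00258), with controls between 40.4 and 86.9 CPM. It shares 34.6% of its 50-base exon stretches with its near copy C4a, so the 2 genes may not be separated. C1qa and C1qb, chains of the recognition protein of the classical pathway, fell by 0.37 and 0.39, from 46.8 ± 4.94 to 36.0 ± 3.65 CPM and from 72.2 ± 10.7 to 54.5 ± 5.19 CPM. C1qa lost its call without 3 of the 8 libraries and C1qb without 4, each left out in turn. C3 changed by -0.96 (SE 0.34, adjusted p = 0.169), with values of 3.66, 4.60, 11.3 and 12.1 CPM on day 1 and 3.68, 1.73, 3.04 and 4.65 CPM on day 4, which overlapped.

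Fuel and fasting genes, many of them targets of FoxO transcription factors, fell in 10 of 20 tested cases and rose in 0 (median -0.37). This list shares Cdkn1a, Pdk4, Klf15 and Sesn1 with the glucocorticoid list. Plin4, a coat protein of lipid droplets, was at 106, 102, 110 and 84.7 CPM on day 1 and at 32.5, 26.7, 75.3 and 41.0 CPM on day 4, a change of -1.29 (SE 0.25, adjusted p = 0.0268). Its controls held 29.6, 12.4, 4.02 and 4.73 CPM, so control replicate 1 lay above the lowest library of day 4. Day 4 exceeded the controls by 1.99 (SE 0.51, adjusted p = 0.701), past the threshold except without day 4 replicate 3. Angptl4, a secreted inhibitor of lipoprotein lipase, fell by 1.24 (SE 0.15) from 7.92 ± 1.07 to 2.81 ± 0.658 CPM and its difference from controls was 0.01 (95% interval from -0.41 to 0.43, adjusted p = 0.999). Outside the list, Pnpla2, the lipase that starts the breakdown of stored triglyceride, fell by 1.10 (SE 0.19) and lay at 18.7, 19.0, 36.0 and 20.8 CPM on day 4, replicate 3 being high, against 40.3 to 61.1 CPM on day 1.

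The other genes with the largest falls did not belong to these lists. Arrdc2, an arrestin-domain protein, went from 48.1 ± 3.59 to 16.6 ± 5.59 CPM, a change of -1.53 (SE 0.18, adjusted p = 0.00258). Ddc, the decarboxylase that makes dopamine and serotonin, fell by 1.17 (SE 0.15) from 16.6 ± 3.05 to 6.80 ± 1.31 CPM. Xdh, xanthine dehydrogenase, fell by 1.13 (SE 0.22), Ctla2a, a cysteine protease inhibitor, by 1.03 (SE 0.21) and Adamts9, a secreted metalloprotease, by 0.997 (SE 0.11). Ctla2a and Adamts9 are uncertain, since 25.8% and 10.5% of their 50-base exon stretches also occur in other genes. The cold-inducible RNA-binding genes Rbm3 and Cirbp both fell, by 0.77 (SE 0.11, adjusted p = 0.00742) and 0.54 (SE 0.14, adjusted p = 0.0783). Rbm3 was between 41.6 and 50.5 CPM on day 1, at 23.8, 24.5, 34.3 and 25.2 CPM on day 4 and between 25.4 and 28.6 CPM in the controls.

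Myelin genes rose. Of 23 tested, 16 rose and 0 fell, 10 of them below an adjusted p of 0.05, with a median change of 0.52. Ugt8a makes the galactolipid of myelin (chr3:125865271-125938619) and rose most of the genes named for their size. It was at 7.74, 9.397, 6.57 and 6.75 CPM on day 1, at 24.5, 25.7, 16.3 and 21.4 CPM on day 4, and at 25.7, 25.6, 33.4 and 22.9 CPM in the controls. No library of day 4 fell into the range of day 1, and the change was 1.41 (SE 0.15, adjusted p = 0.00209). Opalin, a membrane protein of oligodendrocytes, rose by 1.39 (SE 0.14, adjusted p = 0.00179) from 3.75, 4.60, 2.95 and 3.78 CPM to 12.7, 12.8, 9.73 and 10.7 CPM. Its controls were at 14.1, 18.4, 26.8 and 16.6 CPM, and day 4 was 0.65 below them on the log2 scale (SE 0.18, adjusted p = 0.764), past the threshold except without day 4 replicate 3 or 4.

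The main structural genes of myelin were not uniform. Mog, a protein of the outer myelin surface, rose by 0.80 (SE 0.11) from 23.3 ± 3.49 to 41.0 ± 2.58 CPM. Mbp, which compacts the myelin layers, changed by -0.02 and Mobp by 0.13, and neither passed the test. Trf, transferrin, rose by 0.84 (SE 0.11), but 63.5% of its exon bases also belong to the gene model Gm20425. Lpar1, a lysophosphatidic acid receptor, rose by 0.90 (SE 0.15) and Padi2, which converts arginine to citrulline in myelin basic protein, by 0.82 (SE 0.10). Bcas1, a marker of oligodendrocytes that are starting to myelinate, went the other way, from 104 ± 3.85 to 85.2 ± 7.72 CPM, with a fall of 0.28 (SE 0.08, adjusted p = 0.0836). It lost its call without day 1 replicate 1 or day 4 replicate 2, and 11.7% of its exon bases overlap an antisense gene.

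Among markers of mature oligodendrocytes 6 of 9 rose and 0 fell (median 0.52), and the 6 that rose also stand in the myelin list. Among markers of their precursors and newly formed cells 1 of 10 rose (Olig2, 0.32) and 2 fell (Neu4, -0.53, and Itpr2, -0.24), and 1 of these 10 was called without day 1 replicate 1 or 2 or day 4 replicate 2 or 4. The summed level of the mature markers was 3061.9 to 4149.8 CPM on day 1, 4219.5 to 4543.2 CPM on day 4 and 3339.8 to 5906.3 CPM in the controls. The part of cell number in the myelin result was not tested.

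Enzymes of cholesterol synthesis rose in 11 of 20 cases and fell in 0 (median 0.32), and 1, Nsdhl, passed the adjustment. The count depended on single libraries. It was 5 without day 1 replicate 2, without day 1 replicate 4 or without day 4 replicate 1, 6 without day 4 replicate 2, and 7 without day 1 replicate 3 or day 4 replicate 4. It was 6 with the median of ratios and 2 with an F test without moderation, while the median of the list stayed between 0.26 and 0.35 with each library left out. Msmo1, a sterol demethylase, was at 43.6, 37.9, 36.2 and 28.1 CPM on day 1 and at 70.7, 64.5, 47.2 and 48.6 CPM on day 4, and rose by 0.65 (SE 0.15, adjusted p = 0.0557). Nsdhl, which acts in the same removal of methyl groups, rose by 0.39 (SE 0.09, adjusted p = 0.0487) from 10.8 ± 0.723 to 14.5 ± 0.789 CPM. Hmgcs1, an early enzyme of the pathway, rose by 0.39 (SE 0.10). For Hmgcs1 day 4 was still 0.40 below the controls (SE 0.12, adjusted p = 0.851), a call lost without 5 of the 8 libraries, each left out in turn. Regulators and carriers of sterols rose in 1 of 15 cases, Insig1, and fatty acid synthesis genes in 2 of 13, Fads1 and Fads2, with 0 falls. Insig1 was not called without 4 of the 8 libraries, nor Fads1 and Fads2 without 5, each left out in turn.

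Chaperones of the endoplasmic reticulum rose in 10 of 20 cases and fell in 0 (median 0.38), and 5 passed the adjustment. Pdia6, a protein disulfide isomerase (chr12:17266545-17284770), was at 59.5, 54.9, 63.2 and 65.5 CPM on day 1 and at 109, 110, 95.6 and 101 CPM on day 4, with controls between 81.8 and 96.0 CPM. It rose by 0.77 (SE 0.08, adjusted p = 0.00179), and no libraries of the days overlapped. Calr, the calcium-binding chaperone calreticulin, rose by 0.51 (SE 0.07, adjusted p = 0.00405) from 245 ± 10.7 to 350 ± 21.1 CPM. Dnajb11, a co-chaperone, rose by 0.45 (SE 0.08) and Xbp1, a transcription factor of the unfolded protein response, by 0.39 (SE 0.08). Day 4 differed from the controls by 0.19 in the median of this list, with 0 of 20 members past the threshold (5 without control replicate 2). The medians of the myelin and cholesterol lists on day 4 were -0.13 and -0.19 from the controls.

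Promoters of such chaperones are known for the endoplasmic reticulum stress response element, so it was searched for. Its letters are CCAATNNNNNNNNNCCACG on both strands, in the 250 bases before the start of each gene (RefSeq, GRCm38.p6). It was found in 35 of 27025 genes with a promoter (0.13%), in 14 of 8716 genes tested (0.161%) and in 7 of 18 chaperones of the list (38.9%). Of the 10 that rose 5 hold it. Its first 5 letters alone, the CCAAT box, overlap it and occur in 37.5% of all genes with a promoter. The box was in 16 of 18 chaperones (88.9%), but also in 14 of 15 cholesterol genes (93.3%). It was in 7 of 13 cytosolic heat shock genes and 7 of 16 myelin genes. The following stretches of 80 bases are shown because they hold the motif in the 5 genes that rose, with its fixed letters in capitals. The letters are on the strand of the gene, and Calr and Creld2 hold the motif on the opposite strand, read as CGTGG, 9 bases and ATTGG.
Pdia6 (chr12:17266460-17266539, plus strand): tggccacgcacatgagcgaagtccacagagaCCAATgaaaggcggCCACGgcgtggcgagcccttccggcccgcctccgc
Calr (chr8:84847045-84847124, minus strand): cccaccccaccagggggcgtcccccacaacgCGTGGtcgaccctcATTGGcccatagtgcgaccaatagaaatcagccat
Hspa5 (chr2:34771994-34772073, plus strand): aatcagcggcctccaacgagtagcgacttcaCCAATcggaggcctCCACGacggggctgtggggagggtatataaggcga
Hsp90b1 (chr10:86705608-86705687, minus strand): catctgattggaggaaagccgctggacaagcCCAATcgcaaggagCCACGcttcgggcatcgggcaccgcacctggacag
Creld2 (chr15:88819489-88819568, plus strand): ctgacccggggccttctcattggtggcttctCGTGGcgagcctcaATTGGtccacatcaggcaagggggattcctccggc

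The changes of these 5 genes were 0.77 for Pdia6, 0.51 for Calr, 0.46 for Hspa5, 0.48 for Hsp90b1 and 0.50 for Creld2. Hsp90b1 has a further copy of the motif on the opposite strand. Canx (0.26, adjusted p = 0.15) and Dnajc3 (0.11, adjusted p = 0.57) hold the motif and did not pass the threshold, and the other 5 chaperones that rose do not have these letters in this window. The sterol regulatory element, searched as TCACNCCAC, was in 1.22% of all promoters and in 1 of 15 cholesterol genes with a promoter, Hmgcs1. A match is a description of letters and not a test of binding.

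Cytosolic heat shock genes rose in 5 of 17 cases and fell in 0 (median 0.26), a count that was 11 without day 4 replicate 3. Cryab, a small heat shock protein abundant in oligodendrocytes, rose by 0.63 (SE 0.10, adjusted p = 0.00998) from 55.8 ± 5.35 to 87.1 ± 10.6 CPM, and 17.04% of its exon bases overlap Hspb2. Hsph1, a nucleotide exchange factor of HSP70, rose by 0.52 (SE 0.10) from 171 ± 12.6 to 247 ± 35.2 CPM, with day 4 replicate 3 lowest of its group at 197 CPM. Ahsa1, an activator of HSP90, rose by 0.42 (SE 0.07).

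**Figure D3:**
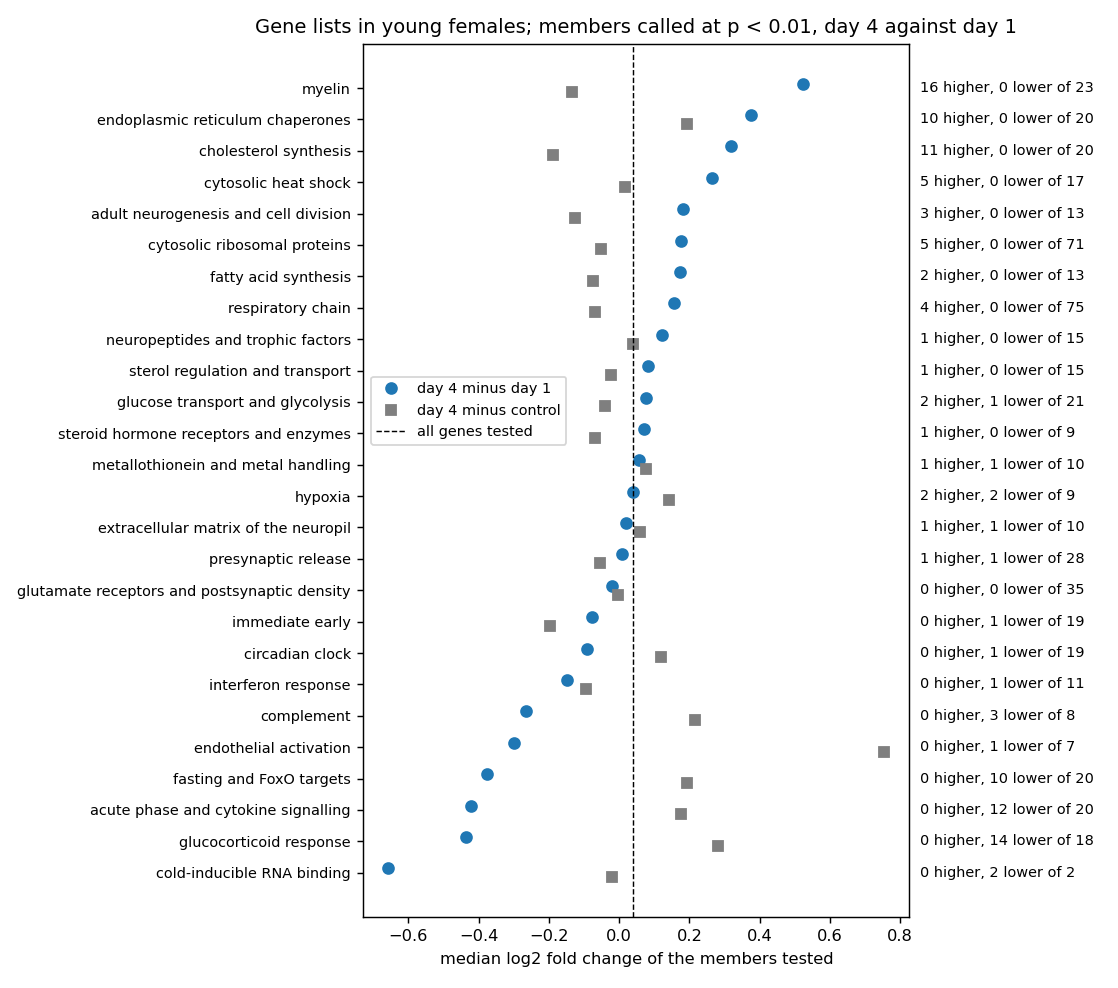
Median change of each gene list in young females (x axis, log2 of CPM plus 1), with circles for day 4 against day 1, squares for day 4 against controls and a dashed line for all genes from day 1 to day 4, and the numbers of tested members that rose and fell from day 1 to day 4 at the right. Myelin (16 higher, 0 lower), cholesterol synthesis (11, 0) and chaperones (10, 0) lie to the right of 0, and glucocorticoid (0, 14), acute-phase (0, 12) and fasting genes (0, 10) to the left.

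Homeostatic genes of microglia rose. Of 10 markers tested 6 rose and 0 fell (median 0.36). P2ry12, the ADP receptor of surveying microglia (chr3:59216272-59262871), was at 3.95, 4.77, 6.27 and 4.26 CPM on day 1, at 11.0, 10.1, 11.5 and 12.3 CPM on day 4 and at 13.8, 17.6, 14.4 and 16.1 CPM in the controls. The 3 groups did not overlap. The rise was 1.09 (SE 0.13, adjusted p = 0.00274), and day 4 was 0.42 below the controls (SE 0.12, adjusted p = 0.764), a call lost without control replicate 4, day 4 replicate 1 or day 4 replicate 2. Siglech (0.87), Olfml3 (0.65), Fcrls (0.40) and Csf1r (0.36) rose too, while Cx3cr1 (0.15) and Tmem119 (0.21) did not pass. Of 7 genes of activated microglia and macrophages, Trem2 rose by 0.72, and Fcgr3 and Fcer1g fell by 0.61 and 0.47.

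Markers of astrocytes were divided, with 2 of 15 higher and 4 lower (median 0.05), and 3 were called without day 1 replicate 4 or day 4 replicate 1. Of 7 reactive-astrocyte genes, 4 fell and 0 rose (median -0.40), namely Lcn2, Osmr, Gfap (-0.40) and Serpina3n (-0.45), of which 3 also stand in the acute-phase list (the exception is Gfap). Endothelial markers were divided too, with 2 of 14 higher and 2 lower. Itm2a, a membrane protein of brain endothelium, rose by 1.17 (SE 0.12, adjusted p = 0.00179) from 6.80 ± 1.09 to 16.4 ± 1.40 CPM. Slc2a1, the glucose transporter of the blood-brain barrier, fell by 0.56 (SE 0.12, adjusted p = 0.0367) from 126 ± 3.91 to 86.5 ± 16.6 CPM. Of 8 markers of pericytes and smooth muscle 2 rose (median 0.45), and 0 were called without day 1 replicate 1 and 5 without day 4 replicate 2. Myl9, not on the list, a light chain of smooth muscle myosin, rose by 1.08 (SE 0.13, adjusted p = 0.00274) from 7.43 ± 0.546 to 17.01 ± 3.49 CPM.

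Of 15 activation genes of the endothelium 7 were high enough to be tested. Among them Icam1, an adhesion molecule for leukocytes, fell by 0.93 (SE 0.17, adjusted p = 0.0207) from 8.27 ± 2.26 to 3.81 ± 0.614 CPM, and 0 rose. Its exons overlap an antisense gene over 11.7% of their bases. Vwf, which binds platelets, stood at 57.9 ± 6.74 CPM on day 1 and 51.7 ± 10.5 CPM on day 4 (change -0.17, 95% interval from -0.46 to 0.11, adjusted p = 0.517). The median of this list above the controls was 1.17 on day 1 and 0.76 on day 4.

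**Figure D4:**
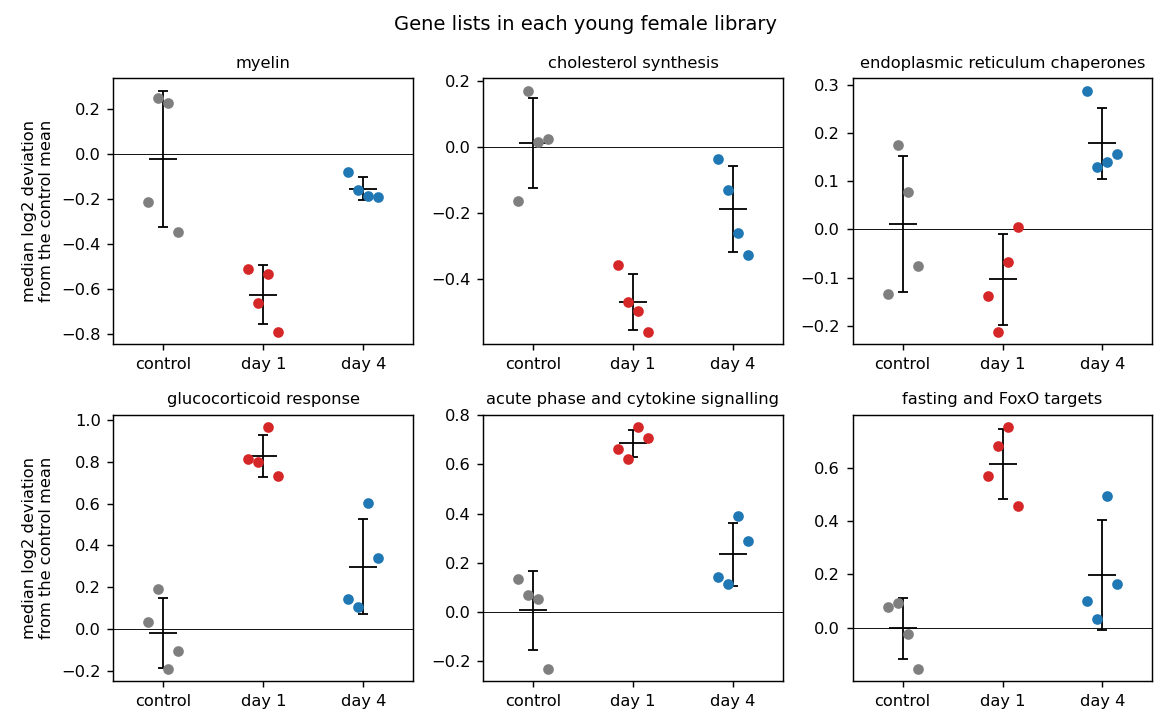
Median deviation of 6 gene lists from the mean of the young female controls (y axis, log2 of CPM plus 1) in each control, day 1 and day 4 library. For glucocorticoid genes the 4 day 1 libraries lie between 0.73 and 0.97 and the 4 day 4 libraries between 0.11 and 0.60, and for myelin genes between -0.79 and -0.51 and between -0.19 and -0.08.

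Few neuronal genes passed the test. Of 35 genes of glutamate receptors and the postsynaptic density 0 rose and 0 fell in limma (median -0.02), 5 had an unadjusted p below 0.05, and the unmoderated F test called 1. Without day 4 replicate 3 limma called 6 of them. Presynaptic genes had 1 of 28 higher (Syn2, 0.21) and 1 lower (Syn3, -0.32), and both lost their call without 6 of the 8 libraries, each left out in turn. Of 19 immediate early genes, which neuronal activity induces, Fosb fell by 0.64 (SE 0.15, adjusted p = 0.0496) from 14.9 ± 3.33 to 9.07 ± 0.78 CPM and 0 rose. Of 19 clock genes, Npas2 fell by 0.26 (SE 0.08) and 0 rose, and 5 were called without day 4 replicate 3. Npas2 lost its call without 5 of the 8 libraries, as did Pdyn, each left out in turn. Neuropeptides and trophic factors had 1 of 15 higher (Pdyn, 0.33) and 0 lower. Markers of the granule, CA1 and CA3 neurons of the hippocampus and of inhibitory neurons together had 1 of 25 higher and 0 lower. In the 8 libraries the summed level was 254 to 303 CPM for the granule neuron markers, 539 to 634 CPM for CA1 and 479 to 611 CPM for CA3.

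The remaining lists are set beside all genes tested, of which 4.45% rose and 2.83% fell. Most of these lists are short, so that a count of 1 or 2 already exceeds these shares. Genes of adult neurogenesis and cell division rose in 3 of 13 cases, Tubb2b by 0.91 (SE 0.10, adjusted p = 0.00209), Stmn1 and Hopx by 0.38 each, and fell in 0. Tubb2b, a tubulin of growing neurites, went from 87.3 ± 9.09 to 165 ± 20.1 CPM and shares 31.3% of its stretches with Tubb2a. Glycolysis genes had 2 of 21 higher and 1 lower, hypoxia genes 2 of 9 higher and 2 lower, metallothionein and metal genes 1 of 10 each way, matrix genes 1 of 10 each way, interferon genes 0 of 11 higher and 1 lower (Ifitm3), and steroid receptors and enzymes 1 of 9 higher. Respiratory chain genes had 4 of 75 higher (median 0.16) and ribosomal protein genes 5 of 71 (median 0.18), with 0 lower. Without day 1 replicate 2 these counts were 13 and 13, and with the other libraries left out in turn they were as low as 2 and 1.

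Markers of tissue at the border of the dissection varied widely between libraries. The summed choroid plexus markers ranged from 27.2 to 3472.5 CPM on day 1 and from 46.8 to 4492.8 CPM on day 4, and 0 of 10 passed the test. Meningeal fibroblast markers (0 of 6), thalamic, cortical and striatal markers (0 of 18) and hemoglobin genes (0 of 4) did not pass either. Without day 4 replicate 2, 3 meningeal and 3 hemoglobin genes were called. The median change of the hemoglobins was -0.92. Hemoglobin and white blood cell markers summed to 85.0 to 122 CPM on day 1 and 15.1 to 186 CPM on day 4.

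Against the home-cage controls, 92 genes (0.791%) differed on day 4, 54 (0.464%) higher and 38 (0.327%) lower, and 0 passed the adjustment, where 369 had an unadjusted p below 0.05 and the lowest adjusted p was 0.0707. The day 4 libraries enter this comparison and the one with day 1. The count was 203 without control replicate 2, 109 with an unmoderated F test and 248, of which 17 passed the adjustment, when all 12 groups shared 1 fit. After scaling by the median of ratios the split was 50 to 51, and with no filter it was 128 to 157. Genes were kept by their average over the day 1 and day 4 libraries, without the controls. Genes high only in the controls could thus be left out, which can tilt the counts toward genes higher on day 4.

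Vessel genes were among those above the controls on day 4. Of 7 genes of endothelial activation 5 were higher and 0 lower, and 4 or 5 were called without each library. The 7 were kept by their average after sepsis, which favours genes that lie above the controls. Vwf was at 15.3, 18.6, 34.8 and 11.0 CPM in the controls and at 43.1, 49.3, 47.4 and 67.0 CPM on day 4, a difference of 1.43 (SE 0.27, adjusted p = 0.349). Lrg1, a secreted glycoprotein of activated vessels, differed by 1.69 (SE 0.28, adjusted p = 0.186) and was at 0.360, 1.22, 0.494 and 0.518 CPM in the controls and 4.66, 2.16, 5.67 and 5.30 CPM on day 4. Ly6a, a surface antigen of mouse endothelium, differed by 0.87 (SE 0.17, adjusted p = 0.357), with 19.0% of its 50-base exon stretches shared with other genes. Etnppl, an enzyme of astrocytes that breaks down phosphoethanolamine, was at 15.9, 10.8, 17.8 and 12.6 CPM in the controls and at 28.1, 30.1, 36.5 and 32.0 CPM on day 4, a difference of 1.11 (SE 0.15, adjusted p = 0.0707).

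Among the genes below the controls on day 4, Fos, an immediate early transcription factor, was at 13.1, 14.2, 12.02 and 17.2 CPM in the controls and at 7.01, 8.68, 5.41 and 5.26 CPM on day 4, a difference of -1.01 (SE 0.17, adjusted p = 0.186). Pllp, a myelin protein, differed by -0.71 (SE 0.14, adjusted p = 0.396), Mmp14, a membrane metalloprotease, by -0.69 (SE 0.14, adjusted p = 0.438) and Bcas1 by -0.65 (SE 0.16, adjusted p = 0.692). These 4 were called without each of the 8 libraries. Their courses from day 1 to day 4 were unlike. Mmp14 fell by 0.72 and Bcas1 by 0.28, Pllp rose by 0.62, and Fos changed by -0.29 and did not pass the threshold. Pllp is uncertain, since 54.2% of its exon bases overlap an antisense gene. Glucocorticoid genes were higher in 5 of 18 cases (median 0.28, 1 without control replicate 3 and 7 without control replicate 2), acute-phase genes in 4 of 20 (2 without day 4 replicate 2) and fasting genes in 4 of 20 (1 without day 4 replicate 3), with 0 lower in each list. Members of these lists, too, were kept by their average after sepsis. Of 4 hemoglobin genes 3 were lower, and 0 without control replicate 2. Among genes that the study discusses, Epha10 differed by 0.39 (SE 0.13), Rasgrp3 by -0.38 (SE 0.13) and Cxxc1 by 0.22 (SE 0.10), each with an adjusted p of 0.999 and not past the threshold. Ednrb, the endothelin B receptor, differed by -0.45 (SE 0.12, adjusted p = 0.701), a call lost without control replicate 3.

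The genes that moved in young females moved mostly the same way in old females. Of the 518 genes that rose, 473 (91.3%) had a positive change in old females, against 54.1% of all genes tested, and 272 passed the threshold there in the same direction and 2 in the opposite. Of the 329 that fell, 300 (91.2%) had a negative change, against 45.9% of all genes, with 193 past the threshold and 1 in the opposite direction. The comparisons share no library. In young males 324 of the 518 (62.5%, against 46.8% of all genes) and 243 of the 329 (73.9%, against 53.2%) had the same sign, with 81 and 70 past the threshold and 6 and 11 in the opposite direction. Without day 4 replicate 3 of the young males the same sign was found for 317 (61.2%) and 231 (70.2%), with 75 and 68 past the threshold and 5 and 16 in the opposite direction. The median change of the 518 was 0.35 in young females, 0.39 in old females and 0.07 in young males (0.06 without that library).

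The change itself differed between old and young females in 1153 genes (9.91%), of which 638 passed the adjustment. It was more positive in young females in 486 (4.18%) and more negative in 667 (5.73%). The falls were shallower in young females. For glucocorticoid genes 7 of 18 differences passed, acute-phase genes 8 of 20 and fasting genes 8 of 20, all of them with a more positive change in young females, and the medians of these lists were -0.44, -0.42 and -0.37 in young and -0.92, -1.01 and -0.66 in old females. The counts were 4, 5 and 4 at the lowest with a single library left out. Cdkn1a fell by 2.18 in young and by 3.57 in old females, and the difference of 1.39 had an adjusted p of 0.0266. Osmr differed by 1.04 (adjusted p = 0.0147), Fkbp5 by 0.57 (0.0264) and Pnpla2 by 1.34 (0.00525) in the same sense.

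For microglial markers 6 of 10 differences passed, all with a larger rise in old females, whose median was 1.15 against 0.36, and 3 passed without old female day 4 replicate 4. Several genes with a large difference did not pass the test in young females themselves. Cbfa2t3, a transcriptional corepressor, changed by -0.11 in young and 1.81 in old females (difference -1.91, adjusted p = 1.71e-05), and Kctd21 by 0.21 and 2.19 (difference -1.98, adjusted p = 0.0013). Gpr17, a receptor of oligodendrocyte precursors, was at 38.8 ± 3.13 CPM on day 1 and 39.0 ± 4.62 CPM on day 4 in young females and rose by 2.003 in old females (adjusted p of the difference = 0.00259). In the other direction Ctla2a fell by 1.03 in young and 3.66 in old females, and Spp1, osteopontin, changed by -0.20 and -2.08, with differences of 2.63 and 1.88. Lcn2 differed by 1.54 with an adjusted p of 0.0886, and was not called without 10 of the 15 libraries.

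**Figure D5:**
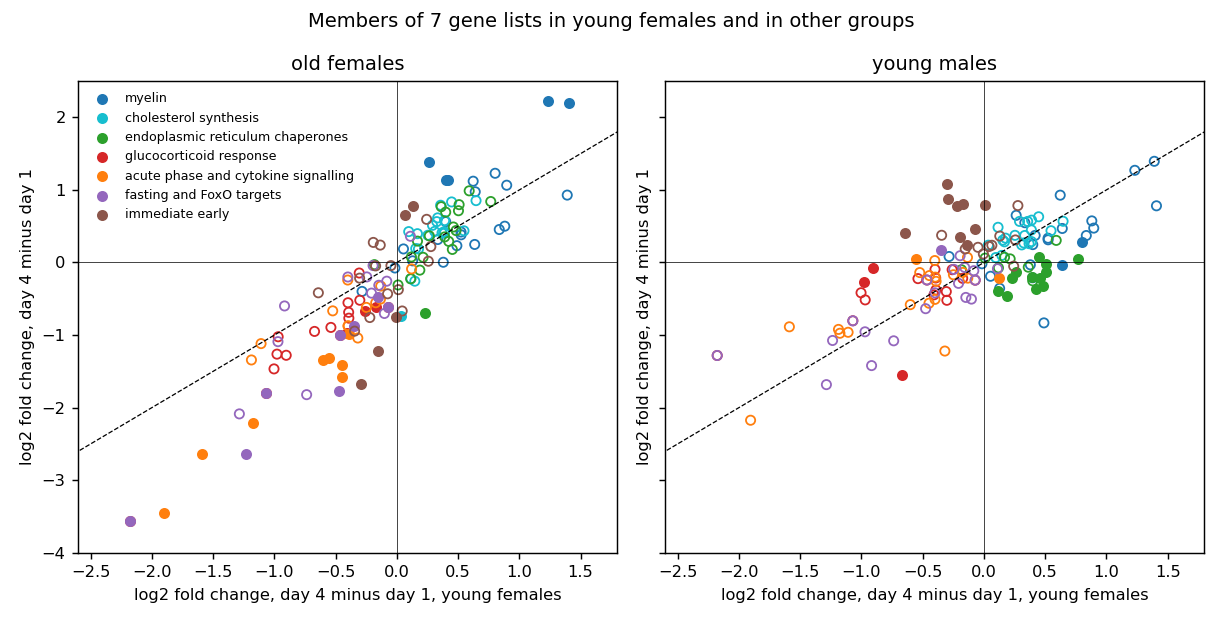
Change from day 1 to day 4 of the tested members of 7 gene lists in young females (x axis, log2 of CPM plus 1) against the change of the same genes in old females (left) and young males (right), with filled points where the difference between the groups had p below 0.01. The median of glucocorticoid genes is -0.92 in old and -0.44 in young females, and that of chaperones -0.12 in young males and 0.38 in young females.

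Between young females and young males the change differed in 1285 genes (11.0%), more positive in young females in 675 (5.80%) and more negative in 610 (5.24%), and 452 passed the adjustment. The split was 439 to 849 after scaling by the median of ratios and 263 to 338 after the correction for GC content, under which 5 passed the adjustment. With day 4 replicate 3 of the young males left out, because of its female pattern, 1240 genes differed, 587 and 653 by direction. For chaperones of the endoplasmic reticulum the change was more positive in young females in 12 of 20 cases and more negative in 0. In young males 0 of the 20 rose and 2 fell from day 1 to day 4 (median -0.12, against 0.38 in young females), and 0 fell with that male library left out (median -0.08). The count of differences was 7 with that male library left out, 6 when day 1 replicate 1 of the young females was dropped, and 7 with either other scaling. Pdia6 changed by 0.77 in young females and 0.05 in young males, a difference of 0.72 with an adjusted p of 0.0362. With the correction for GC content it was 0.65 (adjusted p = 0.111), and 9 of the 16 libraries, each left out in turn, took the adjusted p above 0.05.

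Immediate early genes went the other way, with a more negative change in young females in 9 of 19 cases and a more positive in 0 (8 to 10 with each library left out, 7 with the correction for GC content). In young males 10 of the 19 rose (median 0.36, and also 10, with a median of 0.29, without that male library), and in young females 0 rose and 1 fell (median -0.08). Junb changed by -0.22 in young females and 0.77 in young males (difference -0.995, adjusted p = 0.00302), Egr4 by -0.30 and 1.08 (difference -1.38, adjusted p = 0.00649) and Fosb by -0.64 and 0.41 (difference -1.05, adjusted p = 0.0194). With the correction for GC content their adjusted p was 0.0943, 0.0598 and 0.0569. Genes of glutamate receptors and the postsynaptic density differed in the same sense in 10 of 35 cases, 9 without day 4 replicate 3 of the young males and 5 with the correction for GC content, and the medians were -0.02 in young females and 0.09 in young males. For the lists of myelin, cholesterol synthesis and microglial markers the numbers of differences from young males past the threshold were 2 of 23, 0 of 20 and 0 of 10, or 4, 2 and 0 with the correction for GC content. The 12 and 9 differences of chaperones and immediate early genes compare with 5.80% and 5.24% of all genes in those directions.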

How the data were processed

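RNA of whole hippocampi was sequenced after poly(A) selection on an Ion Proton. The authors aligned the reads with STAR to mm10, counted them per gene in Partek Flow and deposited CPM values after TMM normalization (with versions not given in the sources used here). Such values hold fractional reads and do not give back whole numbers, so no count model was run. From these values log2(CPM + 1) was computed for the 11633 genes that averaged 5 CPM or more over the 8 libraries, and groups were compared with limma 3.58.1 in R 4.3.3, two-sided, with a variance trend on mean expression, using the libraries of the groups compared. The study used an ANOVA at the same threshold of 0.01. Differences between groups in the change were tested as 1 contrast over the 4 group means. The code was tested on simulated data. Each library held 1 whole hippocampus, and since the labels do not name the mice, p-values measure the spread between these libraries.

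Genes were named by a rule: the 12 genes with the largest change in each direction of day 4 against day 1 (no overlap, average of 10 CPM or more), up to 4 members of each list with the smallest p, the 3 most positive and 3 most negative differences between groups, the 4 largest differences from controls in each direction, and genes that the text of the study discusses. In a list, all members that were called could also be named. The members and lists were chosen with earlier results of these data known. Alternatives were pseudocounts of 0.1 and 5, no filter, an average of 50 CPM or more, an unmoderated F test, all 12 groups in 1 fit, scaling by the median of ratios, correcting for GC content (99.8% of genes had a value), a replicate block and each library left out. Promoters came from RefSeq for GRCm38.p6. Results of a few named genes are not reported here.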

Additional observations from a re-analysis of the deposited data

Results flagged for a closer look

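Outlying libraries were sought in 405 sets of 4 libraries (a named gene in 1 of the 3 young female groups). The search found 24, close to the share of about 1 in 20 that chance gives, so single entries below may be chance. The young female control replicate 1 library stood apart for Arrdc2 at 15.7 CPM (others 10.2 to 11.1) and Msmo1 at 54.2 CPM (others 71.4 to 74.5). The young female control replicate 2 library stood apart for C1qa at 54.8 CPM (others 26.2 to 30.2), C1qb at 65.8 CPM (others 32.9 to 37.3), Cox7a2l at 153 CPM (others 72.6 to 76), Fads2 at 114 CPM (others 74 to 80.6), Gpr17 at 53.4 CPM (others 50.7 to 51.1), Padi2 at 59.2 CPM (others 28 to 32.6) and Rpl22 at 96.6 CPM (others 75.9 to 78.6). The young female control replicate 3 library stood apart for Srd5a1 at 10.2 CPM (others 7.65 to 7.81). The young female day 1 replicate 1 library stood apart for Pgk1 at 82.4 CPM (others 96.3 to 98.1). The young female day 1 replicate 2 library stood apart for Uqcr11 at 72.5 CPM (others 48.9 to 52.3). The young female day 1 replicate 3 library stood apart for Cck at 49.2 CPM (others 80.1 to 85.1), Fkbp4 at 82.4 CPM (others 74.9 to 76), Fkbp5 at 135 CPM (others 117 to 120), Gdf1 at 16.2 CPM (others 8.11 to 9.02) and Syn2 at 483 CPM (others 438 to 446). The young female day 4 replicate 1 library stood apart for C1qa at 30.6 CPM (others 37.8 to 38), C4b at 42.9 CPM (others 59.6 to 60.7), Fosb at 10.2 CPM (others 8.64 to 8.72) and Slc17a6 at 31 CPM (others 12.5 to 14.4). The young female day 4 replicate 3 library stood apart for Ciart at 9.99 CPM (others 6.48 to 6.92), Pnpla2 at 36 CPM (others 18.7 to 20.8) and Rbm3 at 34.3 CPM (others 23.8 to 25.2). Over all genes, control replicate 2 stood apart on the first principal component, and day 4 replicate 3 had the largest deviation from its own group. Day 1 replicate 3 and day 4 replicate 1 nevertheless have more of the values listed here than day 4 replicate 3. The cause was not tested.

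The change from day 1 to day 4 of 22 named genes differed between young and old females at an adjusted p below 0.05 (limma, a test of the difference itself). As young minus old on the log2 scale, the differences were 0.76 for Adamts9, 1.41 for Angptl4, -1.91 for Cbfa2t3, 1.39 for Cdkn1a, 0.95 for Ciart, 2.63 for Ctla2a, -0.73 for Elovl6, 0.57 for Fkbp5, -2.0 for Gpr17, 0.67 for Insig1, -1.98 for Kctd21, -0.82 for Ly6c1, 1.24 for Mt2, 1.04 for Osmr, -0.81 for P4ha1, -0.73 for Padi2, 0.74 for Per1, 1.34 for Pnpla2, -0.98 for Rasgrp3, 1.88 for Spp1, 1.10 for Tfrc and -0.78 for Ugt8a.

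Between young females and young males 12 named genes differed in the same test. As young female minus young male, the differences were -0.52 for Cbfa2t3, 0.40 for Cox7a2l, -1.38 for Egr4, -1.15 for Eno1b, 1.01 for Etnppl, -1.16 for Fos, -1.05 for Fosb, -1.0 for Junb, 0.72 for Pdia6, -0.83 for Per1, 0.48 for Sparc and -0.53 for Vgf. With the correction for GC content 0 of the 12 had an adjusted p below 0.05, and 11 had an unadjusted p below 0.01 (Vgf did not). Without young male day 4 replicate 3, 11 of the 12 kept an adjusted p below 0.05, the exception being Cox7a2l.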

How the results depend on the processing

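Of 847 genes that changed from day 1 to day 4, the count was 1314 with no filter and 304 among genes of at least 50 CPM, which tests more or fewer genes, and between 558 and 1238 without each library. For day 4 against controls (92 genes) it was 285 with no filter, 24 at 50 CPM, 248 with all 12 groups in 1 fit and 71 to 203 without each library. For the difference from old females (1153) it was 1790, 316 and 868 to 1312 with no filter, at 50 CPM and without each library. For the difference from young males (1285) it was 539 at 50 CPM, 601 with the correction for GC content and 864 to 1825 without each library. With no filter the split of day 4 against day 1 was 672 higher to 642 lower, and that of day 4 against controls 128 to 157. Genes below an adjusted p of 0.05 from day 1 to day 4 numbered 253, and 0 with the unmoderated F test (724 at p below 0.01), 124 with no filter, 90 at 50 CPM, 503 with the correction for GC content and 75 to 597 without each library. The unmoderated F test also called fewer list members from day 1 to day 4. The counts were 8 for glucocorticoid genes (14 in the main fit), 11 for acute-phase genes (12) and 7 for fasting genes (10). They were 11 for myelin genes (16) and 6 for chaperones of the endoplasmic reticulum (10). The causes were not tested.

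Replicate numbers were not taken to pair the samples, since the mice of day 1 and day 4 were killed on different days and are different animals. The deviations of same-numbered libraries of day 1 and day 4 correlated at -0.03, 0.41, 0.35 and -0.16. Those of differently numbered libraries correlated at -0.37 to 0.39, and whether same-numbered libraries share a batch was not tested. With the replicate block the counts were 1103, 86, 831 and 1073 for the 4 comparisons in the order above. Gpr17, which was not called, changed sign. It (0.00) reached 0.054 without day 1 replicate 3 and was at -0.03 with the median of ratios, -0.008 with the correction for GC content, and -0.032, -0.013 and -0.073 without day 1 replicate 2, day 1 replicate 4 and day 4 replicate 4. Of 85 named genes called, 63 were called without each of the 8 libraries. The 4 libraries per group and a median standard error of 0.10 on the log2 scale limit what can be seen.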
